A study of Mus musculus with 6 samples.

Results

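A set of 10 genes was followed that mark bile duct epithelium or injured liver epithelium. The set is defined by a list of gene symbols, chosen with earlier results of these data known. All 10 had reads in every library, out of 18444 genes listed. They are, with the gene identifiers of the files, the keratins Krt7 (110310), Krt8 (16691), Krt18 (16668), Krt19 (16669) and Krt23 (94179), the surface proteins Epcam (17075) and Cd24a (12484), the transcription factor Sox9 (20682), and the annexins Anxa2 (12306) and Anxa5 (11747). Liver RNA came from male C57BL/6 mice (C57BL/6J in the study's text) labelled as 6 to 8 weeks old, with 1 library per condition on a BGISEQ-500 instrument. In the diet model these were SD (a chow diet control in the labels), HFD (a high fat diet, labelled NASH, that is, nonalcoholic steatohepatitis) and HFD plus JT003. In the fibrosis model these were corn oil, CCl4 in corn oil (carbon tetrachloride, a liver toxin) and CCl4 plus JT003. JT003 is a peptide agonist of both adiponectin receptors, AdipoR1 and AdipoR2, given at 500 μg/kg for 4 weeks in the diet model and for 3 weeks in the CCl4 model. The methods give 16 weeks of HFD, and CCl4 at 5 ml/kg of a 20% solution every 3 days for 6 weeks, with 6 mice per group. They describe a model that adds a methionine and choline deficient diet separately, and the study's text names the sequenced groups by SD and HFD alone. Whether a library holds RNA of 1 mouse or of several is not stated. The labelled age is shorter than the 16 weeks of HFD, so it cannot be the age at sampling in the diet model. The age at sampling is not stated for either model.

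Bile ducts are lined by cholangiocytes, which carry the keratins KRT7 and KRT19 and the adhesion molecule EPCAM, and which also make the transcription factor SOX9. Hepatocytes build their filaments from the keratins KRT8 and KRT18, which pair with each other and are also made in the ducts. After chronic injury, small duct-like cells can multiply, and stressed hepatocytes can take up SOX9, osteopontin (Spp1) and annexins. A bulk measurement of liver RNA cannot tell fewer cells of a type apart from less RNA per cell, and this holds for each gene below.

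The promoters of the filament pair and of Anxa2 are shown first, because the results turn on how Krt8 and Krt18 moved apart and on how far Anxa2 moved. Krt8 and Krt18 lie on the same chromosome with no other protein-coding gene listed between them by RefSeq. A RefSeq promoter of build GRCm38.p6, running from 250 bases before to 50 bases after the start of the gene, was matched for 7 of the 10 genes, and not for Krt19, Sox9 and Cd24a. The Krt8 window is chr15:102004293-102004592 on the minus strand, the Krt18 window chr15:102027966-102028265 on the plus strand and the Anxa2 window chr9:69453433-69453732 on the plus strand, all written 5′ to 3′. Capitals mark matches, on either strand, to the AP-1 motif TGANTCA, the TEAD motif GGAATG, the GC box GGGCGG, the TATA box TATAAA and the CCAAT box CCAAT.
Krt8: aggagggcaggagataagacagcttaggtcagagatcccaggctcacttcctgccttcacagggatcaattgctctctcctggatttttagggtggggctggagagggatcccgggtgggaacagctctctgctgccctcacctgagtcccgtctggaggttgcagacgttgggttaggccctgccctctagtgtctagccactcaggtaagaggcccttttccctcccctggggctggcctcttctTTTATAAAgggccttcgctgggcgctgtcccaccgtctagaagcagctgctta
Krt18: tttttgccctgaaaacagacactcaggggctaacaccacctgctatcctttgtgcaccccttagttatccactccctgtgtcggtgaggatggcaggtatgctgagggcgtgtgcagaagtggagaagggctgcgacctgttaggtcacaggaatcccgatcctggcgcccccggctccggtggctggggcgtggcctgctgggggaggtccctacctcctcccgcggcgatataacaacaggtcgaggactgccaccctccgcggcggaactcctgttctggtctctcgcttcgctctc
Anxa2: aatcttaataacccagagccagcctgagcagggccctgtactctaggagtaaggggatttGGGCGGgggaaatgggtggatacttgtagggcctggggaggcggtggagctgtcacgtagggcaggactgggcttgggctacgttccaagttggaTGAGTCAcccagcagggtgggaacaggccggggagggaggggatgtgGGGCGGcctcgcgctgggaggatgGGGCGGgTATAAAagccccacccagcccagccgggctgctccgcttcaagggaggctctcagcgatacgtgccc
The Anxa2 window held 1 AP-1 match, 3 GC boxes and 1 TATA box. The Krt8 window held 2 overlapping TATA box matches and the Krt18 window none of the 5 motifs. Over the 32544 RefSeq promoters of this length, AP-1 was matched in 7.79%, TEAD in 14.6%, the GC box in 35.9%, the TATA box in 13.6% and the CCAAT box in 37.4%. Of the other 4 windows, Krt7 held 4 GC boxes, Epcam held 1, and Krt23 and Anxa5 held no match. These matches describe letters only, and no binding was measured.

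Levels between genes were compared as FPKM, the fragments scaled to transcript length and library size that the authors deposited. Krt8 (77.18 to 180.45 FPKM), Krt18 (77.67 to 183.37 FPKM) and Anxa5 (33.62 to 96.57 FPKM) were abundant in every library. Anxa2, which ranged from 5.15 to 29.64 FPKM, was 4th in every library. The duct keratins Krt7 and Krt19 and the adhesion gene Epcam stayed below 4 FPKM throughout. Alb, the albumin gene of hepatocytes, was at 25391 to 36570 FPKM. The defining duct markers were thus near the bottom of the range in RNA rich in hepatocyte transcripts, and hepatocytes also make Krt8 and Krt18. Sox9, Cd24a and Krt23 ranged from 1.03 to 5.21 FPKM. The highest FPKM of Krt7, Krt8, Krt18, Krt19, Sox9, Anxa2 and Anxa5 was in the CCl4 library. Epcam and Cd24a were highest in CCl4 plus JT003, and Krt23 in SD.

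**Figure D1:**
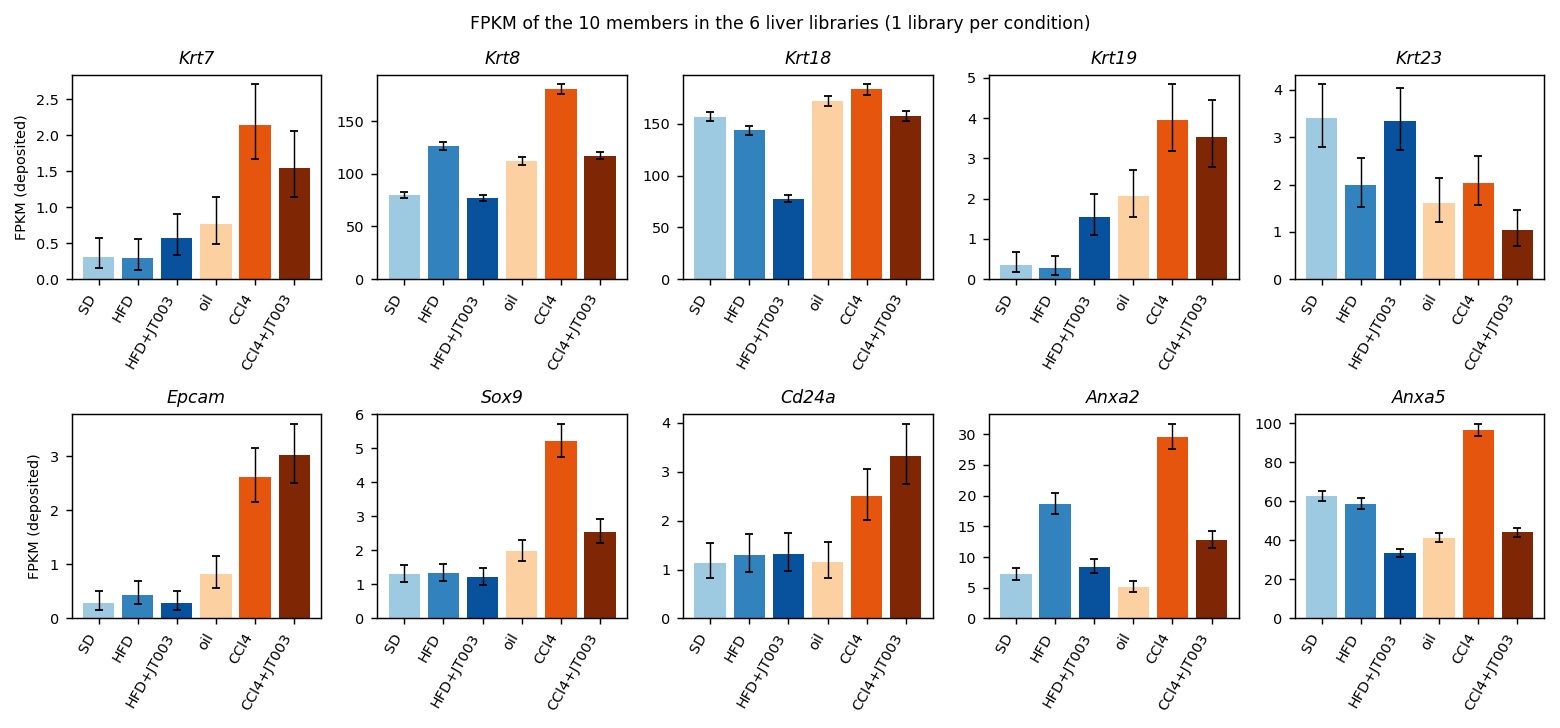
Bars show the deposited FPKM of each gene in the 6 libraries, with a separate linear axis from 0 for each gene, and error bars are 95% Poisson intervals that cover counting error only. Anxa2 was at 29.64 FPKM in CCl4 against 5.15 in corn oil, whereas Epcam stayed at 3.02 FPKM in CCl4 plus JT003.

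Comparisons between libraries used the expected counts, which are the authors' estimates of the reads of each gene, with reads shared between genes split among them, rounded to whole numbers and scaled by TMM, edgeR's trimmed mean of M-values, over the 3 libraries of a model. The counts of a library summed to 19374236 to 20184557. An exact conditional binomial test, two-sided, was run on every gene with reads and adjusted by Benjamini-Hochberg, and a gene was called when the adjusted p was under 0.001 and the log2 ratio at least 1 in size. With 1 library per condition the test compares libraries and not conditions, and the 95% intervals given after each log2 ratio cover counting error only. By the exact conditional binomial test the adjusted p of the called genes ran from 0.000616 (Krt7, CCl4 over corn oil) to 8.4e-216 (Krt18, HFD plus JT003 over SD). No spread between mice could be estimated, so a call says nothing of how far 2 mice of one group would differ. Several keratin genes and Cd24a have near-identical processed copies in the genome. The expected counts of the keratin members and Cd24a were whole numbers, except for Krt7 (68.97) and Krt8 (6568.08) in CCl4, so almost no fractional split shows. How reads that match such copies were assigned remains uncertain. When a biological coefficient of variation of 0.2 was assumed instead, in edgeR's exact test, 1 call was left among those of the 10 genes, that of Anxa2 between corn oil and CCl4. The HFD library enters 2 comparisons and so does the CCl4 library, so a high or low value there moves both in opposite directions.

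Anxa2 encodes annexin A2, a calcium-dependent protein that links membranes to actin. It had 198 counts in SD, 504 with HFD and 229 once JT003 was added to it, and 137 counts in corn oil, 816 with CCl4 and 339 with CCl4 and JT003 together. In both models the disease library was the highest, and the JT003 library lay between it and the control. The log2 ratio was 1.25 (1.02 to 1.501) in HFD against SD, and 2.27 (2.02 to 2.56) in CCl4 against corn oil. It was -1.15 (-1.39 to -0.93) for HFD plus JT003 over HFD and -1.27 (-1.47 to -1.09) for CCl4 plus JT003 over CCl4. Anxa2 was the only one of the 10 genes called in all 4 comparisons. Its fall with JT003 was -0.82 in the diet model and -0.91 in the CCl4 model when libraries were scaled to Actb, which is under the threshold. Scaling to Actb takes Actb as unchanged, so any change of Actb itself enters every ratio scaled to it. By TMM, Actb itself was lower in the JT003 library than in the disease library of each model. The JT003 library was near SD in the diet model, with a log2 ratio of 0.10 (-0.18 to 0.38), and above corn oil in the CCl4 model, with 1.00 (0.72 to 1.30), just under the threshold, and was called when scaled to Actb, at 1.05.

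Anxa5 encodes annexin A5, which binds phosphatidylserine on membranes. It had 2201 counts in SD, 2019 with HFD and 1159 once JT003 was added to it, and 1401 in corn oil, 3382 with CCl4 and 1488 with CCl4 and JT003 together. The diet library itself did not stand above SD, while the CCl4 library was the highest of the 6. CCl4 over corn oil gave 0.98 (0.89 to 1.07), just under the threshold, but 1.22 with total reads, which was called, and CCl4 plus JT003 over CCl4 gave -1.19 (-1.28 to -1.11), which was called. HFD plus JT003 over HFD gave -0.82 (-0.93 to -0.72). Against its own control, the JT003 library gave -1.04 (-1.14 to -0.94) in the diet model, which was called but came to -0.90 with total reads and -0.78 with Actb, and -0.21 (-0.32 to -0.11) in the CCl4 model, which was 0.09 under scaling to total reads.

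The filament keratins Krt8 and Krt18 were the most abundant of the 10 genes. Krt8 had 2908 counts in SD, 4507 with HFD and 2766 once JT003 was added to it, and 3934 in corn oil, 6568 with CCl4 and 4102 with CCl4 and JT003 together. Krt18 had 4417, 3951 and 2146 counts in the diet libraries in the same order, and 4660, 5146 and 4250 in the CCl4 libraries. Krt8 was highest in the disease library of each model. Krt18 was not in the diet model, and in the CCl4 model it was by counts but not once scaled by TMM. Krt8 gave 0.54 (0.47 to 0.61) in HFD against SD and 0.45 (0.39 to 0.51) in CCl4 against corn oil. Krt18 gave -0.25 (-0.31 to -0.19) and -0.15 (-0.20 to -0.09) for the same comparisons, and the latter was 0.09 under scaling to total reads. With JT003, Krt8 gave -0.73 (-0.80 to -0.66) and Krt18 -0.90 (-0.98 to -0.83) in the diet model. In the CCl4 model they gave -0.69 (-0.75 to -0.63) and -0.29 (-0.35 to -0.23), and the latter was 0.08 under scaling to Actb. None of these 8 ratios reached the threshold. HFD plus JT003 over SD was called for Krt18, at -1.15 (-1.23 to -1.08) or -0.90 scaled to Actb, and not for Krt8, at -0.19 (-0.26 to -0.11), which was 0.07 under scaling to Actb.

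The ratio of Krt8 to Krt18 within a library does not depend on how libraries are scaled, and it was examined after the values had been seen. The FPKM ratio was 0.508 in SD, 0.880 with HFD and 0.994 once JT003 was added to it. It was 0.651 in corn oil, 0.984 with CCl4 and 0.744 with CCl4 and JT003 together. The ratio was thus higher in each disease library than in its control, and the JT003 libraries went different ways. The log2 change of the ratio was 0.79 (0.70 to 0.88) in HFD against SD and 0.60 (0.52 to 0.68) in CCl4 against corn oil. It was 0.18 (0.07 to 0.28) for HFD plus JT003 over HFD and -0.40 (-0.48 to -0.32) for CCl4 plus JT003 over CCl4. S100a10, which encodes the partner that binds annexin A2 in a tetramer, was set beside Anxa2 in the same way. The FPKM ratio of Anxa2 to S100a10 was 0.0380 in SD, 0.121 with HFD and 0.133 once JT003 was added to it, and 0.0259 in corn oil, 0.148 with CCl4 and 0.118 with CCl4 and JT003 together. S100a10 itself had 2390, 1915 and 790 counts in the diet libraries and 2428, 2530 and 1318 in the CCl4 libraries, so that it was lowest with JT003 in both models. The Anxa2 ratio was therefore low in both controls and high in the other 4 libraries, with a log2 change with JT003 of 0.14 (-0.12 to 0.39) in the diet model and -0.33 (-0.53 to -0.12) in the CCl4 model.

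**Figure D2:**
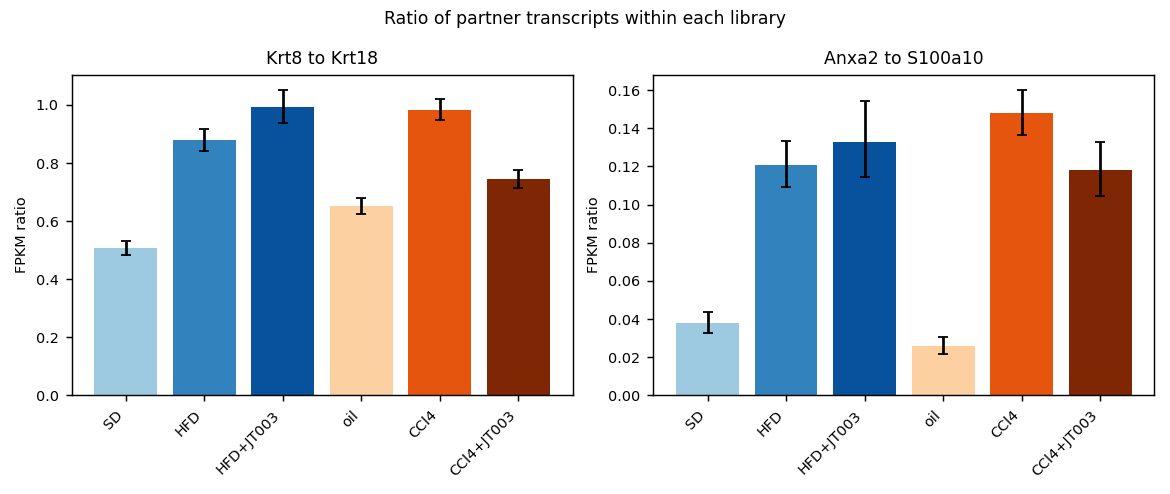
Bars show the FPKM ratio of Krt8 to Krt18 and of Anxa2 to S100a10 in each of the 6 libraries, on linear axes from 0, with 95% counting intervals. The Krt8 to Krt18 ratio was 0.508 in SD and 0.651 in corn oil, and the Anxa2 to S100a10 ratio was 0.133 in HFD plus JT003, close to the 0.121 of HFD.

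Sox9 encodes the transcription factor that marks ducts and hepatocytes acquiring duct features. It had 111 counts in SD, 109 with HFD and 102 once JT003 was added to it, and 161 in corn oil, 440 with CCl4 and 207 with CCl4 and JT003 together. The diet libraries were level, and CCl4 stood alone. CCl4 over corn oil gave 1.15 (0.90 to 1.43) and CCl4 plus JT003 over CCl4 gave -1.09 (-1.34 to -0.86), and both were called. CCl4 plus JT003 over corn oil gave 0.06 (-0.24 to 0.37). Scaled to Actb, the first 2 ratios were 0.85 and -0.73, under the threshold.

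Epcam and Cd24a were not called between CCl4 and CCl4 plus JT003. Epcam had 12 counts in SD, 18 with HFD and 12 once JT003 was added to it, and 33 in corn oil, 109 with CCl4 and 121 with CCl4 and JT003 together. Cd24a, which encodes a small surface glycoprotein, had 42, 47 and 48 counts in the diet libraries, and 41 in corn oil, 92 with CCl4 and 118 with CCl4 and JT003 together. For both genes the CCl4 plus JT003 library had the highest count of the 6. Epcam gave 1.39 (0.86 to 2.04) for CCl4 over corn oil, which was called, and 0.14 (-0.25 to 0.53) for CCl4 plus JT003 over CCl4. Cd24a gave 0.85 (0.33 to 1.45), which was not called but came to 1.08 and a call with total reads, and 0.34 (-0.06 to 0.76). CCl4 plus JT003 over corn oil was called for both, at 1.53 (1.01 to 2.18) for Epcam and 1.19 (0.70 to 1.78) for Cd24a. The interval of the JT003 ratio of Epcam lay above -0.25, while that of Sox9 lay below -0.86.

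Krt7 and Krt19 are the classical keratins of bile ducts, and both are also made by mesothelial cells, which cover the liver surface. Krt7 had 10, 9 and 18 counts in SD, HFD and HFD plus JT003, and 24, 69 and 48 in corn oil, CCl4 and CCl4 plus JT003. Krt19 had 10, 7 and 39 counts in the diet libraries and 52, 93 and 74 in the CCl4 libraries. The 3 CCl4 model libraries exceeded all 3 diet libraries for both genes. CCl4 over corn oil gave 1.18 (0.55 to 1.97) for Krt7, which was called but came to 0.88 with Actb, and 0.53 (0.05 to 1.07) for Krt19. HFD plus JT003 over HFD gave 2.17 (1.28 to 3.86) for Krt19, which was called, and 0.84 (-0.25 to 2.31) for Krt7. CCl4 plus JT003 over CCl4 gave -0.52 (-1.10 to 0.02) for Krt7 and -0.33 (-0.80 to 0.12) for Krt19, where Krt19 was 0.02 under scaling to Actb.

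Mesothelial genes varied beside these keratins. Of 7 mesothelial genes, 6 had reads, and their summed level in CPM, counts scaled to library size, was 2.49 in SD, 2.69 with HFD and 6.22 once JT003 was added to it, and 21.1 in corn oil, 17.4 with CCl4 and 9.496 with CCl4 and JT003 together. Msln, which encodes mesothelin, had 6, 3 and 36 counts in the diet libraries and 118, 108 and 38 in the CCl4 libraries. Between HFD and HFD plus JT003 it gave 2.91 (1.90 to 5.91), and between CCl4 and CCl4 plus JT003 -1.47 (-2.09 to -0.97). Upk3b, a uroplakin of the mesothelium, had 3, 3 and 19 counts, and then 76, 89 and 35. Between HFD and HFD plus JT003, 5 of the 6 genes were above 0 and 1 below, and only Msln was called. The one below was Wt1, from 21 to 17 counts, and Gpm6a went from 24 to 33, 0.41 (-0.37 to 1.26). The rise of Krt19 in HFD plus JT003 was thus accompanied by a higher mesothelial sum, while Epcam had 18 and 12 counts in the same libraries, and the part of mesothelial RNA in the Krt7 and Krt19 values was not tested.

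**Figure D3:**
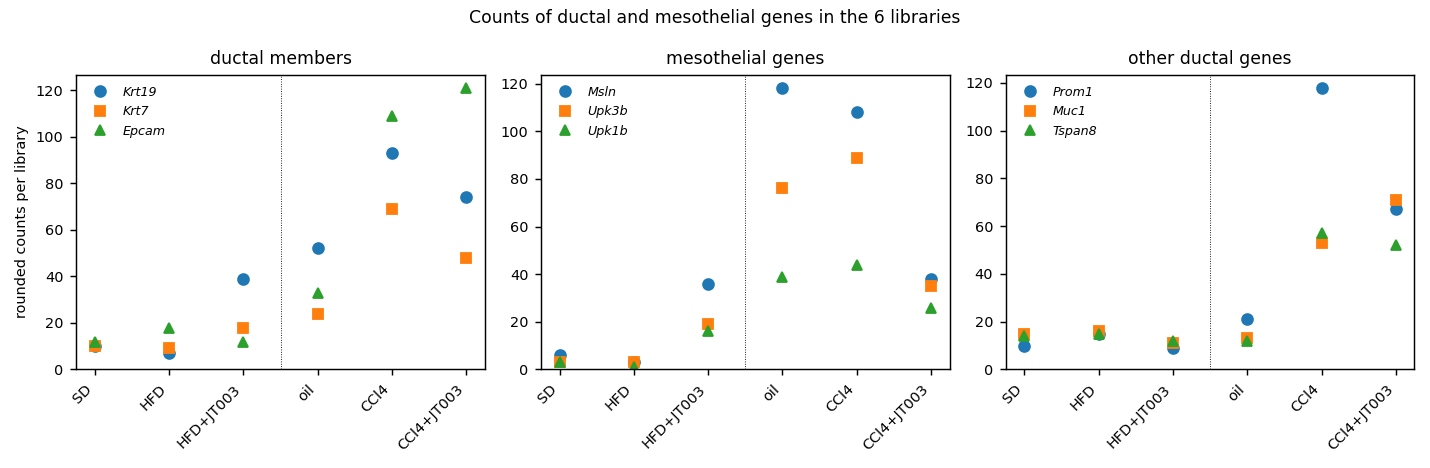
Points show the rounded counts of each gene per library, on linear axes from 0, for the members Krt19, Krt7 and Epcam, the mesothelial genes Msln, Upk3b and Upk1b, and the other duct genes Prom1, Muc1 and Tspan8. A dotted line separates the diet model from the CCl4 model, and Krt19 and Msln were both higher in HFD plus JT003 (39 and 36 counts) than in HFD (7 and 3 counts) while Epcam was not (12 against 18 counts).

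Krt23, an acidic keratin, was highest in SD and lowest in CCl4 plus JT003. It had 107 counts in SD, 61 with HFD and 103 once JT003 was added to it, and 49 in corn oil, 64 with CCl4 and 31 with CCl4 and JT003 together. HFD was the lowest of the diet libraries, and the CCl4 libraries lay around or below it. HFD over SD gave -0.88 (-1.38 to -0.44) and HFD plus JT003 over HFD gave 0.71 (0.26 to 1.21). CCl4 over corn oil gave 0.09 (-0.46 to 0.66) and CCl4 plus JT003 over CCl4 gave -1.01 (-1.72 to -0.42). None was called, the last because its adjusted p by the exact conditional binomial test was 0.00248. Scaled to Actb, HFD plus JT003 over HFD was 1.04 for Krt23, which was called.

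Over the 10 genes, CCl4 over corn oil had 4 called higher and 0 lower, against 4.80% of all tested genes called higher and 2.46% lower, with a median log2 ratio of 0.92 beside 0.0046 over all genes tested. CCl4 plus JT003 over CCl4 had 0 called higher and 3 lower, against 1.91% and 2.55%, with a median of -0.60 beside -0.0036. Members called in CCl4 over corn oil were 2 when scaled to Actb and 6 with total reads, and members called in CCl4 plus JT003 over CCl4 were 0 when scaled to Actb. HFD over SD had 1 called higher and 0 lower, against 2.96% and 2.49%, and a median of -0.16. HFD plus JT003 over HFD had 1 called higher and 1 lower, against 0.767% and 0.901%, and a median of -0.33. HFD plus JT003 over SD had 1 called higher, Krt19, and 2 lower, Krt18 and Anxa5, against 3.20% and 2.78%. CCl4 plus JT003 over corn oil had 2 called higher, Epcam and Cd24a, and 0 lower, against 3.29% and 1.77%. Because the 10 genes were chosen with earlier results of these data known, these shares describe the set and do not test it.

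**Figure D4:**
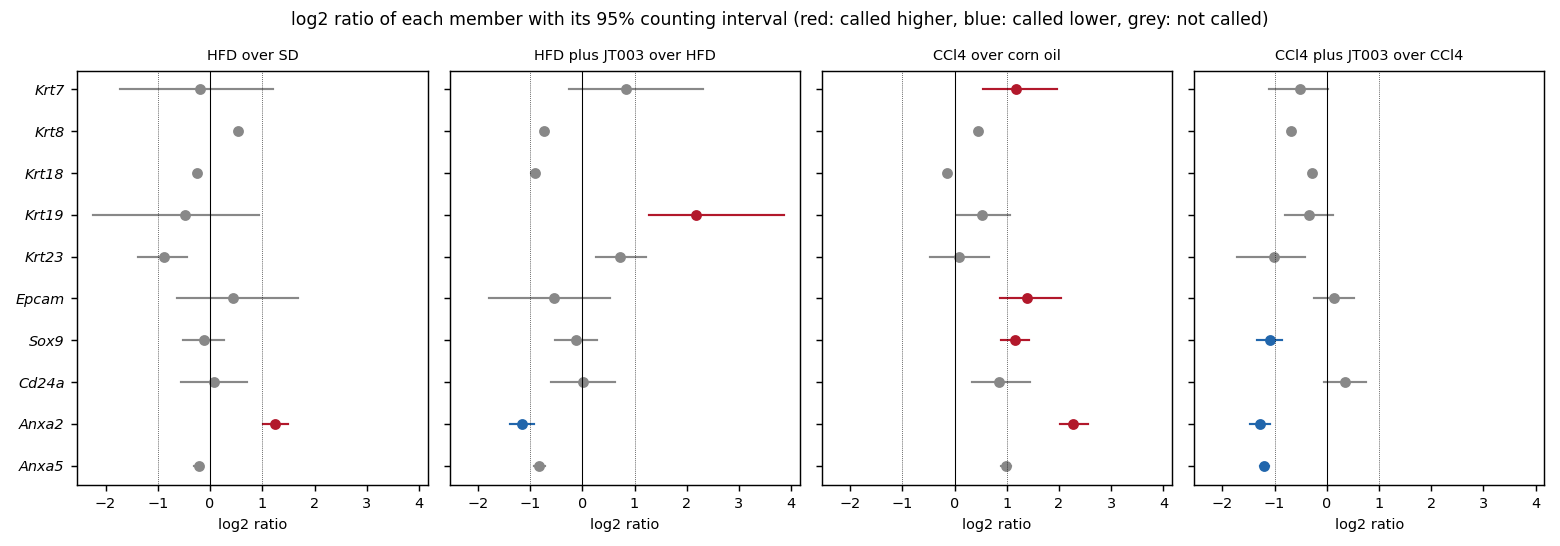
Points show the log2 ratio of each gene in 4 comparisons, lines are 95% counting intervals, dotted lines mark a log2 ratio of 1 in either direction, and color marks genes called higher (red) or lower (blue). CCl4 plus JT003 over CCl4 had 3 genes called lower, Sox9, Anxa2 and Anxa5, while Epcam and Cd24a lay at 0.14 and 0.34.

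A second reading of CCl4 was available. The authors' table of CCl4 against CCl4 plus JT003 holds a CCl4 column that sums to 2.97 times the CCl4 library. From its size, the column appears to pool several libraries, which the table does not name. Subtracting the CCl4 library left 39780549 reads. In these other CCl4 reads Anxa2 was at 49.7 CPM against 39.0 in the CCl4 library, Anxa5 at 156.0 against 161.5, and Krt8 at 300.3 against 313.6. Sox9 was at 17.8 against 21.0 and Epcam at 4.18 against 5.20. These 5 genes stood above corn oil in both readings. Krt19 was at 2.42 against 4.44, below the 3.03 of corn oil, and Krt7 at 2.01 against 3.29. Krt23 was at 1.80 against 3.06. Msln was also lower in the other reads, at 3.72 against 5.16.

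Set against the other CCl4 reads, CCl4 plus JT003 gave -1.63 (-1.80 to -1.47) for Anxa2, -1.15 (-1.23 to -1.07) for Anxa5 and -0.86 (-1.09 to -0.64) for Sox9. It gave 0.45 (0.11 to 0.79) for Epcam, -0.16 (-0.49 to 0.15) for Cd24a, 0.17 (-0.36 to 0.70) for Krt7 and 0.52 (0.08 to 0.97) for Krt19. The signs for Krt7, Krt19 and Cd24a were thus opposite to those against the CCl4 library, and those for the annexins, Sox9 and Epcam were the same. Other CCl4 reads over corn oil gave 2.62 (2.38 to 2.89) for Anxa2, 1.36 (0.91 to 1.90) for Cd24a, 1.09 (0.58 to 1.70) for Epcam, 0.92 (0.67 to 1.18) for Sox9 and 0.50 (-0.15 to 1.24) for Krt7. Sox9 in both comparisons, and Krt7 over corn oil, were then under the threshold.

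**Figure D5:**
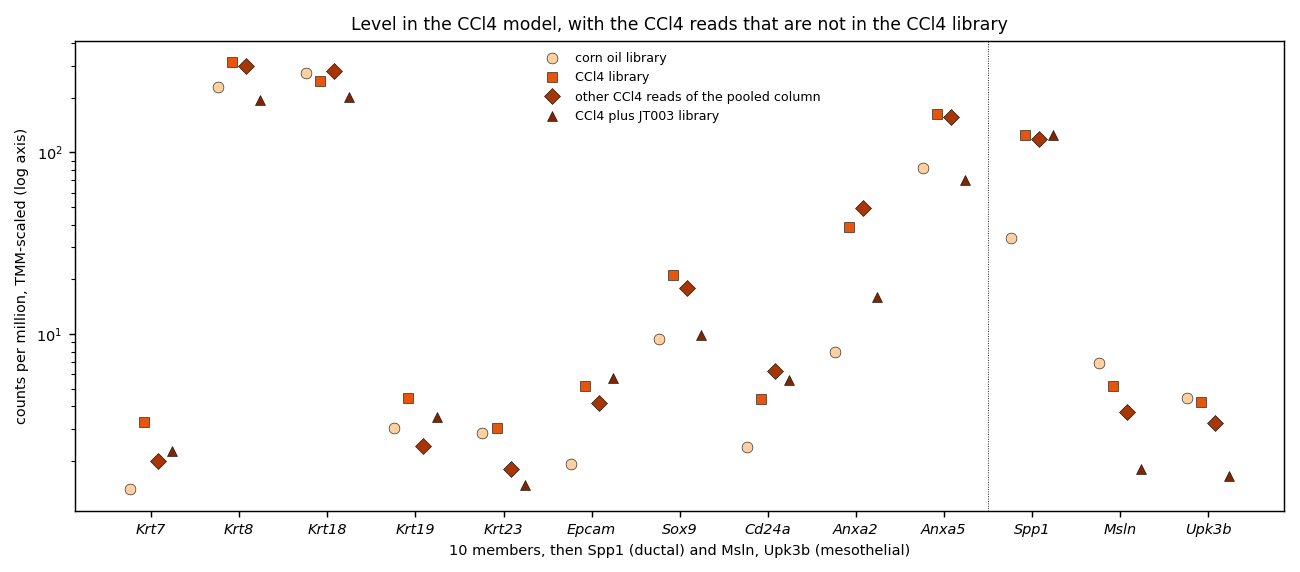
Points show CPM on a log axis for the 10 genes and for Spp1, Msln and Upk3b, in corn oil, the CCl4 library, the other CCl4 reads of the pooled column and CCl4 plus JT003. Anxa2 was at 39.0 and 49.7 in the 2 CCl4 readings and Krt19 at 4.44 and 2.42, the latter below corn oil at 3.03.

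Other genes of the duct were read from a list of 25. Between corn oil and CCl4, 7 of 24 tested were called higher and 2 lower, with a median of 0.84. Spp1, which encodes osteopontin, went from 582 to 2597 counts, Prom1, which encodes prominin, from 21 to 118, the tetraspanin gene Tspan8 from 12 to 57 and Pkhd1, a gene of the primary cilium, from 43 to 179. Tff3, a mucosal trefoil factor, gave -2.25 and Onecut1, a hepatobiliary transcription factor, -1.40. In CCl4 plus JT003 over CCl4, 2 of 25 were called higher and 1 lower, with a median of -0.01. Onecut1 gave 1.44, Tff3 gave 1.37 and Cdh1, which encodes E-cadherin, -1.18. Spp1 was at 2623 counts with JT003, a log2 ratio of 0.00 (-0.08 to 0.08), and Muc1, a membrane mucin, was at 53 and 71 counts. In CCl4 plus JT003 over corn oil, 6 of 25 were called higher and 0 lower. Between SD and HFD, 1 of 23 was called higher, the bile acid transporter Slc10a2 at 1.97, and 1 lower, Tff3 at -3.31, and with JT003 in the diet model 0 of 22 were called. Cftr, the chloride channel gene of duct cells, had no reads in the diet libraries. Not every gene of this list is confined to ducts, since stressed hepatocytes can also take up Spp1. The part of other cells in the values of this list was not tested.

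Further lists covered the partners of the 10 genes and the pathways known to act on them. Of 16 other keratins, 10 had reads, their sum stayed at 1.76 to 3.41 CPM, and none was called in the 4 main comparisons. Among 14 tested annexins and S100 partners, S100a11 was called between corn oil and CCl4, from 139 to 558 counts, Anxa1 between SD and HFD at 1.02, and S100a10 with JT003 in the diet model at -1.30. Among 14 keratin linkers and junction genes, Ppl (periplakin) and Cldn1 (claudin 1) were called higher with CCl4, at 1.39 and 1.12, and Cldn1 lower with JT003 at -1.76. Hspb1, the small heat shock protein gene among 7 partners of keratin aggregates, gave -1.75 with CCl4 and -1.05 with JT003 in the diet model. Of 12 Notch pathway genes, Hes1, a target of Notch, was called higher with CCl4, from 261 to 668 counts. Of 13 YAP and TEAD pathway genes, 2 were called higher with CCl4, with 7 above and 6 below 0 and a median of 0.03, 2 lower with JT003 after CCl4, with a median of -0.27, and 2 lower with JT003 in the diet model, with a median of 0.07. Birc5 (survivin) gave 3.06 with CCl4 and -2.74 with JT003, Ankrd1 1.58 and -1.98, and Ccn1 and Ccn2 -1.27 and -1.42 with JT003 in the diet model. Birc5 is also a gene of dividing cells, all 8 mitosis genes were called in the same comparisons, and their part in its values was not tested. Tnfrsf12a, the receptor of TWEAK, a ligand that drives duct reactions, gave 1.79 with CCl4, -1.34 with JT003 after CCl4 and -1.15 with HFD.

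Of 10 genes of fetal or injured hepatocytes, 6 were called higher and 1 lower with CCl4, and 5 lower with JT003 after CCl4. Tnfrsf12a, given above, is also on this list and is among the called genes in both comparisons. Gpnmb, a lysosomal glycoprotein gene also made by macrophages, gave 5.45 and -1.86, and Lgals3 (galectin 3) gave 3.22 and -1.06. Afp, the fetal albumin relative, gave 2.66 and -2.57. Bulk RNA does not tell which cells made the transcripts of this list, and the part of macrophages in its values was not tested. Markers of other cell types moved with the CCl4 library as well: 9 of 10 macrophage genes were called higher, and 0 of 10 were called with JT003. Their sum was 76.8 CPM in corn oil, the lowest of the 6 libraries, 199.7 with CCl4 and 260.4 with CCl4 and JT003 together, against 310.4 to 418.3 in the diet libraries. All 8 mitosis genes were called in both comparisons, higher with CCl4 and then lower in its JT003 library, and their sum was 5.76 CPM in corn oil, 207.1 with CCl4 and 17.6 with CCl4 and JT003 together. Of 10 stellate cell and myofibroblast genes, 3 were called higher with CCl4 and 4 lower with JT003, with sums of 114.0, 400.5 and 209.3. In the diet model the same list had 5 called higher with HFD and 3 lower with JT003, with sums of 140.6, 297.1 and 192.4. Anxa2 and Anxa5 are also made by macrophages, myofibroblasts and endothelium, and the part of these cells in their values was not tested. Of 8 sinusoidal endothelial genes, 2 were called lower with CCl4. Hepatocyte genes summed to 98490 to 115300 CPM in all 6 libraries, a sum of which Alb was the largest part. Of 11 tested hepatocyte genes, 1 was called lower with CCl4 and 1 with HFD, and 0 higher in either. Cyp2e1 went from 151340 counts in corn oil to 39104 with CCl4, and Cps1 from 72063 in SD to 34490 with HFD.

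The control libraries were not alike for the duct genes. Corn oil over SD gave 2.30 (1.54 to 3.67) for Krt19, 1.25 (0.30 to 2.64) for Krt7, 1.46 (0.62 to 2.70) for Epcam and 0.68 (0.33 to 1.05) for Sox9. It gave -0.95 (-1.495 to -0.48) for Krt23, -0.50 (-0.60 to -0.40) for Anxa5 and -0.38 (-0.71 to -0.06) for Anxa2. These libraries come from separate experiments, with 16 weeks of HFD in 1 and 6 weeks of CCl4 in the other. Model, vehicle, age at sampling and batch therefore cannot be told apart.

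The genes with the pattern most like 4 of the 10 were found by the Euclidean distance of centred log2 CPM over the 6 libraries, among 10279 genes with at least 100 counts in 1 library. For Krt8 these were Snrpa (0.29), Pcolce (0.29) and Ptms (0.34), where Krt8 itself lay 0.96 from a flat line. For Sox9, 1.71 from flat, they were Gstm2 (0.31), Ccl9 (0.33) and D17H6S56E-5 (0.34). Slc1a4 (0.60), Slc17a4 (0.71) and Chrm3 (0.77) came nearest to Anxa2, which lay 1.89 from flat. Erbb3 (0.31), Nuak1 (0.33) and Gpd2 (0.34) came nearest to Krt23, 1.52 from flat. Erbb3 had 1713, 928 and 1421 counts in the diet libraries and 615, 913 and 501 in the CCl4 libraries.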

How the data were processed

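Liver RNA of 6 mouse conditions was sequenced, 1 library each. The authors deposited an expected count and an FPKM per gene and library. The submitters' notes name HISAT, Bowtie2, RSEM and mm9, without versions or roles. The authors also deposited comparison tables with log2 ratios, p-values and q-values, which were not used except for the pooled CCl4 expected count column.

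Expected counts were rounded. TMM factors were taken per model (3 libraries) and, for CPM, that is counts scaled to library size, over all 6 (over the CCl4 model where the other CCl4 reads are compared), with edgeR 4.0.16 under R 4.3.3. The two-sided binomial test was exact and conditional on the summed reads of both libraries (scipy 1.17.1), with Benjamini-Hochberg adjustment, with a prior count of 2 in log2 ratios and 95% Clopper-Pearson intervals. The interval for a change of a pair ratio or a difference between models is a normal one on the log scale. Scripts ran in Python 3.11.15 with numpy 2.4.6, pandas 2.3.3 and matplotlib 3.10.9, and the test was tested on simulated data. Libraries held 19374236 to 20184557 rounded counts, and a count of 0 allows up to 3. Named genes are the 10 members, up to 4 called genes per list that reach 50 counts in either library, defining markers without reads, and the 3 nearest genes of up to 4 members; Ankrd1, Upk1b, Tspan8, Pkhd1, Cdh1, Onecut1, Muc1 and the pairing with S100a10 were chosen after their values were seen. The members and gene lists were chosen with earlier results of these data known. Alternatives were total reads, TMM over 6 libraries, DESeq2 1.42.0 size factors, Actb, count minimums, no fold threshold, an adjusted p under 0.05, an assumed spread in edgeR's exact test, a prior count of 0.5, FPKM with a pseudocount, and the pooled CCl4 column. The mm9 build differs from the GRCm38.p6 reference, so promoter coordinates are of the latter only.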

Additional observations from a re-analysis of the deposited data

Results flagged for a closer look

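The response of some genes differed between the models, by an interval of the difference (CCl4 model minus diet model, log2) that leaves out 0 with ratios of opposite sign. Between disease library and control, the difference was 0.97 (0.27 to 1.68) for Krt23, 1.27 (0.81 to 1.73) for Sox9 and 1.198 (1.07 to 1.32) for Anxa5. Between JT003 and disease library it was -1.36 (-2.63 to -0.09) for Krt7, -2.50 (-3.74 to -1.26) for Krt19 and -1.73 (-2.49 to -0.96) for Krt23. The intervals cover counting error only, and no spread between mice enters them. With the other CCl4 reads in place of the CCl4 library, the JT003 ratios in the CCl4 model were 0.17 for Krt7, 0.52 for Krt19 and -0.29 for Krt23, so that Krt7 and Krt19 no longer had opposite signs in the 2 models. The ratio over corn oil was then -0.65 for Krt23, of the same sign as in the diet model, and 0.92 for Sox9 and 0.93 for Anxa5. Ratios near 0 also turned sign with the scaling. Sox9 in HFD over SD was 0.0069 with total reads, Krt23 in CCl4 over corn oil was -0.21 with Actb, and Krt19 in CCl4 plus JT003 over CCl4 was 0.024 with Actb, so that these 3 no longer had opposite signs in the 2 models under those scalings.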

How the results depend on the processing

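Of the ratios of single genes under the alternatives, 686 kept their direction and side of the threshold, 50 lost the call, 31 gained one and 31 changed sign, the last all for genes that were not called. Members called in HFD over SD (1) were 5 without a fold threshold and 0 with an assumed coefficient of variation of 0.2 or 0.4. In HFD plus JT003 over HFD (2) they were 1 among genes with at least 100 counts, 5 without a fold threshold, 0 with either assumed spread and 1 with FPKM plus 1. In CCl4 over corn oil (4) they were 2 with Actb, 6 with total reads or FPKM plus 0.1, 7 without a fold threshold, and 1 and 0 with the assumed spreads of 0.2 and 0.4. In CCl4 plus JT003 over CCl4 (3) they were 0 with Actb, 5 without a fold threshold and 0 with either spread. Calls lost with Actb include the change of Actb itself between the libraries. In HFD plus JT003 over SD (3) they were 1 with Actb, 0 with either spread and 1 with FPKM plus 1. In CCl4 plus JT003 over corn oil (2) they were 6 without a fold threshold and 0 with either spread. At the spread of 0.4, edgeR called 11, 0, 59, 0, 5 and 24 of all genes in these 6 comparisons.

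Changes of sign, as log2 ratios, were as follows. In HFD over SD, Sox9 was 0.0069 with total reads, 0.0062 with FPKM plus 1 and 0.010 with FPKM plus 0.1, and Cd24a was -0.0087 with Actb. In HFD plus JT003 over HFD, Sox9 was 0.21 with Actb. In CCl4 over corn oil, Krt18 was 0.089 with total reads, 0.092 with FPKM plus 1, 0.093 with FPKM plus 0.1 and 0.044 with the other CCl4 reads. Krt23 was -0.21 with Actb, -0.36 with the pooled column and -0.65 with the other CCl4 reads, where Krt19 was -0.32. In CCl4 plus JT003 over CCl4, Krt18 was 0.079 and Krt19 0.024 with Actb, Krt19 was 0.18 and Cd24a -0.023 with the pooled column, and Krt7 was 0.17, Krt19 0.52 and Cd24a -0.16 with the other CCl4 reads. In HFD plus JT003 over SD, Epcam was 0.021 with total reads, and with Actb Epcam was 0.12, Krt8 0.069, Krt23 0.085 and Sox9 0.019. In CCl4 plus JT003 over corn oil, Krt8 was 0.063 with total reads, 0.065 with FPKM plus 1 and 0.066 with FPKM plus 0.1, and Anxa5 was 0.089 with total reads, 0.090 with FPKM plus 1 and 0.092 with FPKM plus 0.1. The cause was not tested. Total reads moved the median of all genes by 0.12, 0.23, 0.13 and 0.32 in HFD over SD, CCl4 over corn oil, HFD plus JT003 over SD and CCl4 plus JT003 over corn oil. No paired analysis was possible because each condition has 1 library, and no replicate could be left out. Krt7, Krt19 and Epcam had 7 to 121 counts, so their intervals are wide.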

Other observations

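Tff3, a trefoil factor of mucosal and duct epithelium, had 194 counts in SD, 19 with HFD and 38 once JT003 was added to it, and 217 in corn oil, 54 with CCl4 and 144 with CCl4 and JT003 together. Both disease libraries were thus below their controls, and JT003 lay between in each model, closer to the control in the CCl4 model. Hspb1, a small heat shock protein gene, had 1039, 1554 and 763 counts in the diet libraries and 1278, 461 and 263 in the CCl4 libraries, and was lowest with JT003 in both. The red blood cell list summed to 552.2, 327.5 and 389.2 CPM in the diet libraries and 682.0, 334.3 and 326.4 in the CCl4 libraries. Neutrophil genes summed to 16 to 23.8 CPM and lymphocyte genes to 4.01 to 7.30 over the 6 libraries. Of 9 genes of pancreatic acinar cells and gut epithelium, 4 had reads, with sums of 7.37 to 24.5. Most of these counts were of Cela1 (102 to 314) and Lgr5 (37 to 175), while Prss1, Cpa1, Cpb1, Amy2a5 and Cdx2 had none in any library. Cela1 and Lgr5 were called higher in HFD over SD, at 1.51 and 2.09, and 0 of the list were called lower there. Whether liver cells made these transcripts was not tested.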
